A study of Mus musculus with 7 samples.

Results

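This is a comparison of open chromatin in the whole lower incisor of the mouse with open chromatin in its whole first molars, both at postnatal day 2. It rests on 3 lists of ATAC-seq peaks, 1 each for the lower incisor, the lower first molar and the upper first molar. In ATAC-seq a transposase inserts adapters into DNA that is not wrapped in nucleosomes, and a peak is a stretch where such insertions pile up. Autosomal peaks of the 3 lists that shared at least 1 bp were joined into regions. An incisor-only region had a peak in the incisor and in neither molar, and a molar-only region had a peak in both molars and none in the incisor. Of 87173 regions, 12083 were incisor-only (13.9%) and 15630 were molar-only (17.9%). These 27713 one-sided regions are described here, and all 7 libraries of the series together gave 128642 regions. Each tooth gave 1 library, so no difference between teeth has a replicate check and no p-value was computed.

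The teeth were dissected under a microscope and entered the assay whole, with epithelium, mesenchyme, vessels and nerves together. Animals per library, strain and any pooling are not given in the sources used here. The other 4 libraries took no part in choosing the regions and served only as a readout. They were Sox2-positive cells sorted from the labial cervical loop of the lower incisor at postnatal day 2 (2 replicates), from a Sox2-GFP line in which the Sox2 promoter drives the reporter, and ectoderm peeled from first pharyngeal arches at embryonic day 11.5 (2 replicates). Whether the whole teeth came from the same line is not stated.

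Here the incisor and the lower molar come from the lower jaw and the upper molar from the upper jaw. Jaw and tooth type are thus partly mixed in the comparison. The mouse incisor and molars differ in shape and in growth. The incisor has a single tip and grows throughout life from stem cells at its base, while a molar forms several cusps under signals from enamel knots and then stops growing. Before teeth appear, the jaw field is divided along its length: homeobox genes such as Msx1, Msx2, the Alx genes and Isl1, with the bHLH factors Hand1 and Hand2, mark the distal part where incisors form, and Barx1, the Dlx genes and Pitx1 mark the proximal part where molars form. Chromatin that opens near such genes can hold their promoters and enhancers.

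Among the field genes matched to a promoter sequence, 1 promoter lay in an incisor-only region and 1 in a molar-only region, and both are shown for that reason. Promoters were taken from RefSeq (GRCm38.p6) as 250 bases before to 50 after the start. Of the 9 genes of the incisor-field list 6 were matched in that table, and of the 9 genes of the molar-field list 4. The Hand2 promoter (chr8:57320733-57321032, plus strand) lay in an incisor-only region, and the Barx1 promoter (chr13:48662786-48663085, plus strand) in a molar-only region. Capitals mark 3 short motifs searched on both strands, the TATA box letters TATAAA, the homeodomain core TAATTA and the E-box pattern CANNTG, whose matches do not overlap in the promoters printed here.
Hand2: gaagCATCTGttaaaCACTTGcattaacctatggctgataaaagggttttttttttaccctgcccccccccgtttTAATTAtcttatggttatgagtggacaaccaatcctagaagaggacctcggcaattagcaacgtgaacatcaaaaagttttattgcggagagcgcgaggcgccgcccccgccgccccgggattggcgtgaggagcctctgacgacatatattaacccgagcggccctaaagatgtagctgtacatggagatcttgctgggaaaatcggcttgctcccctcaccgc
Barx1: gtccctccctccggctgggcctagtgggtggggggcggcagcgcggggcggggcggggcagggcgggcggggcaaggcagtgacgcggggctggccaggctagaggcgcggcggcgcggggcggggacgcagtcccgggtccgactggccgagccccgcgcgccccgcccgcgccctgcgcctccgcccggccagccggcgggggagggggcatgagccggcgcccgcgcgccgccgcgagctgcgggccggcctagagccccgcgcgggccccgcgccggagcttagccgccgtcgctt

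The Hand2 promoter held 17 CpG, 50.3% G and C, 1 TAATTA and 2 E-boxes. By contrast the Barx1 promoter held 50 CpG, 84.7% G and C and none of the 3 motifs. Over 31396 autosomal promoters the median was 7 CpG and 53% G and C, and 13.6% held TATAAA, 5.265% TAATTA and 72.2% CANNTG. At the Hand2 promoter the peak signal, which is the caller's area under its significance curve and is at least 200 for any listed peak, was 946 in the incisor, with no peak in either molar. The Sox2-positive replicates had 364 and 634 there, ectoderm replicate 1 had 298, and ectoderm replicate 2 had no peak. At the Barx1 promoter it was 1097 in the lower molar and 1120 in the upper molar, with no peak in the incisor or in either Sox2-positive replicate, and 238 in ectoderm replicate 1 alone. Signals are not normalized between libraries, so values of different lists are given side by side and their sizes are not compared.

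Tbx1, a T-box factor active in the epithelium of the growing incisor, had 2 listed promoters that fell into different classes, and the pair is shown because the files separate them. The first (chr16:18588850-18589149, minus strand) lay in a region with a peak in all 3 teeth. The second (chr16:18590622-18590921, minus strand) lay in a molar-only region.
Tbx1, first promoter: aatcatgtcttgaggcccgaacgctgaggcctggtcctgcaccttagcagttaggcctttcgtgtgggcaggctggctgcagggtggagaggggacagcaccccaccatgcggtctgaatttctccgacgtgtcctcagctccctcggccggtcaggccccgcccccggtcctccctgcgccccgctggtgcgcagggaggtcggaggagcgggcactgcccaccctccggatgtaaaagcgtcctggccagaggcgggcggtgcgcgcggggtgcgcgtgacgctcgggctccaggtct
Tbx1, second promoter: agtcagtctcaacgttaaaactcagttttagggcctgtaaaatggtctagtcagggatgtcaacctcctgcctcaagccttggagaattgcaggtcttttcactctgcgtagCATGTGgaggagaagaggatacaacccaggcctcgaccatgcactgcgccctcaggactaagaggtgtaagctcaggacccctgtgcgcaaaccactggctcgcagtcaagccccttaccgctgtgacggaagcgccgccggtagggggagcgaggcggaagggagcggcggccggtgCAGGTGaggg

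The first Tbx1 promoter had a signal of 941 in the incisor, 1836 in the lower molar and 2011 in the upper molar, with 945 and 1257 in the Sox2-positive replicates and no peak in ectoderm. The second had 675 and 975 in the lower and upper molar, none in the incisor, 376 in Sox2-positive replicate 2, and 856 and 1661 in the ectoderm replicates. Promoters that lay in one-sided regions were few. Of 31396 autosomal promoters, 266 lay in an incisor-only region and met no molar peak (0.847%), and 433 lay in a molar-only region and met no incisor peak (1.38%), against 13200 under peaks of all 3 teeth. The median was 6 CpG in the incisor-only and 8 CpG in the molar-only promoters, and 22 CpG in those open in all 3 teeth.

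Which tooth type had more one-sided regions depended on the length of the lists. The incisor list held 62074 autosomal peaks, the lower molar list 68877 and the upper molar list 67193, and read depth is unknown. With all peaks, molar-only regions outnumbered incisor-only regions by 1.29 times. With the 38000 peaks of smallest p-value in each list the order turned: 9490 of 51325 regions were incisor-only (18.5%) and 8413 molar-only (16.4%), a ratio of 0.887. The classes are not symmetric, as a molar-only region needs a peak in both molar lists. At equal length 25.26% of the regions open in the incisor were incisor-only, and 25.32% of those open in both molars were molar-only. With all peaks these shares were 19.8% and 26.9%. The last peak kept had a −log10 p of 4.01 in the incisor and of 4.28 and 4.27 in the lower and upper molar, and the first peak left out had the same value in each list, a tie that was settled by signal. Most incisor-only regions of the shortened lists had a molar peak further down: 71.6% had one in at least 1 molar and 44.2% in both. For molar-only regions of the shortened lists, 49.9% had an incisor peak in its complete list.

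A strict set therefore kept regions whose peak was among the 38000 best while the other tooth type had none in its complete list. It held 2696 incisor-only regions (3.09% of all regions, 22.3% of the incisor-only ones) and 4212 molar-only regions (4.83% and 26.9%). Regions open in all 3 teeth numbered 42541, 48.8% of the total. The incisor shared 4446 regions with the lower molar alone and 1954 with the upper molar alone (1978 and 1291 at equal list length).

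**Figure D1:**
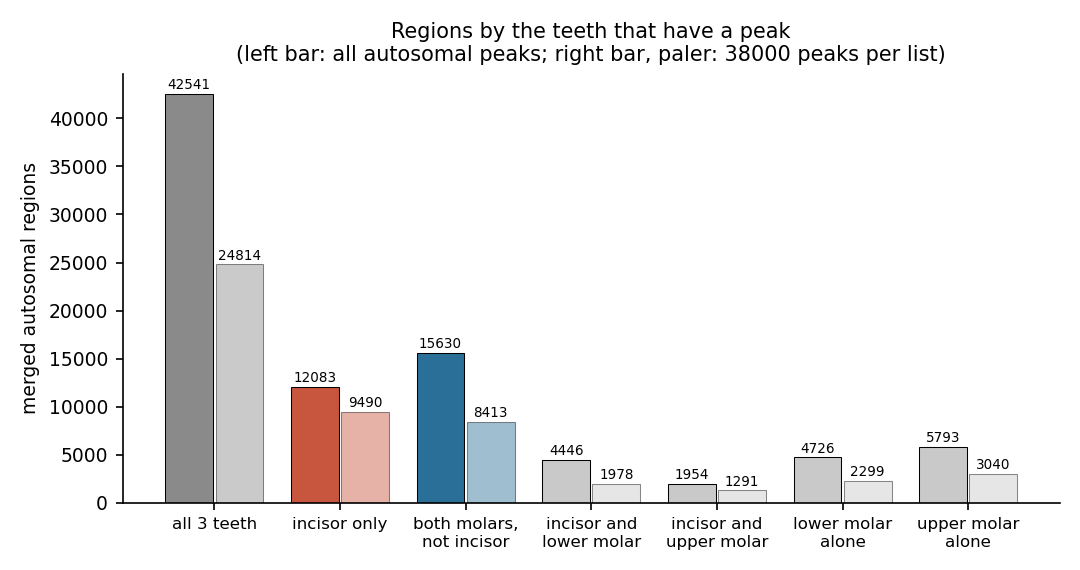
Number of merged autosomal regions (vertical axis) by the teeth that have a peak there, with all peaks (left bars) and with 38000 peaks per list (right, paler bars). Molar-only regions are more numerous with all peaks, 15630 against 12083, and incisor-only regions at equal list length, 9490 against 8413. A molar-only region needs a peak in both molar lists, an incisor-only region in the incisor list alone.

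One-sided regions at genes of the distal jaw and incisor field were mostly incisor-only. A region was assigned to the protein-coding gene with the nearest end within 100 kb. Of 35 one-sided regions at the 9 genes of this list, 27 were incisor-only, a share of 77.1% (Wilson 95% interval 61.0 to 87.9), against 44.9% over all genes. It was 78.6% at equal list length, against 54.4% over all genes, and 13 of 16 in the strict set. Hand2 gave 11 of the 27 and Alx4 gave 6, and they gave 6 and 4 of the 13 strict ones. The lean of this list thus rested largely on a pair of genes. Intervals cover the counting of regions only, and neighbouring regions of a gene are not independent. In whole teeth, fewer cells of a type and less open chromatin per cell cannot be told apart.

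Hand2, a bHLH factor of distal arch mesenchyme, had the largest set. It had 11 incisor-only and no molar-only regions, 6 of them strict. The strongest (chr8:57335516-57336978), 11.7 kb from the gene, had an incisor signal of 2263.5, and Sox2-positive replicates had 965 and 577 there. Next came a region 9.51 kb away (1593) and one 7.62 kb away (1477). Each molar had 2 regions at this locus, and both were open in all 3 teeth. The nearer of them, 4.36 kb from the gene, had a signal of 3571 in the incisor and of 209 and 204 in the lower and upper molar, just above the lowest signal a peak can have. The farther, at 29.3 kb, had 2660, 468 and 660.

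Alx genes, paired-type homeobox factors of the facial midline, came next. Alx4 had 6 incisor-only regions with signals from 341 to 664, 4 of them strict, and no molar-only region. A further 2 regions at Alx4 were shared with the lower molar alone, at 715 and 1795 in the incisor and 306 and 303 in the lower molar. The upper molar had no region at Alx4. A strict incisor-only region (chr10:103028158-103029463) lay inside Alx1, within 1 kb of its upper-coordinate end. It had a signal of 2131 in the incisor and peaks in all 4 other libraries. By nearest end that region was assigned to the overlapping gene Gm34298, so it is not in the count of the list, and its mention under Alx1 was chosen after its value was seen.

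The remaining incisor-field genes were less one-sided. Isl1, a LIM homeobox gene of the distal oral epithelium, had a single incisor-only region, 0.927 kb beyond the gene, with an incisor signal of 1575. All 4 other libraries had a peak there, from 1615 to 2676. The Isl1 promoter itself was open in all 3 teeth, with 1335 in the incisor, 1106 in the lower molar and 1086 in the upper one. Msx1 had 4 incisor-only regions and 1 molar-only region, none strict. At Gsc the counts were 4 and 2, and at Hand1 1 and 0. The other two genes leaned the other way: Msx2 had 3 molar-only regions and Bmp4, a growth factor ligand of early tooth epithelium and mesenchyme, had 2, with no incisor-only region at either. Both were open in all 3 teeth at their promoters, and Msx2 had 8 and Bmp4 6 such shared regions.

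**Figure D2:**
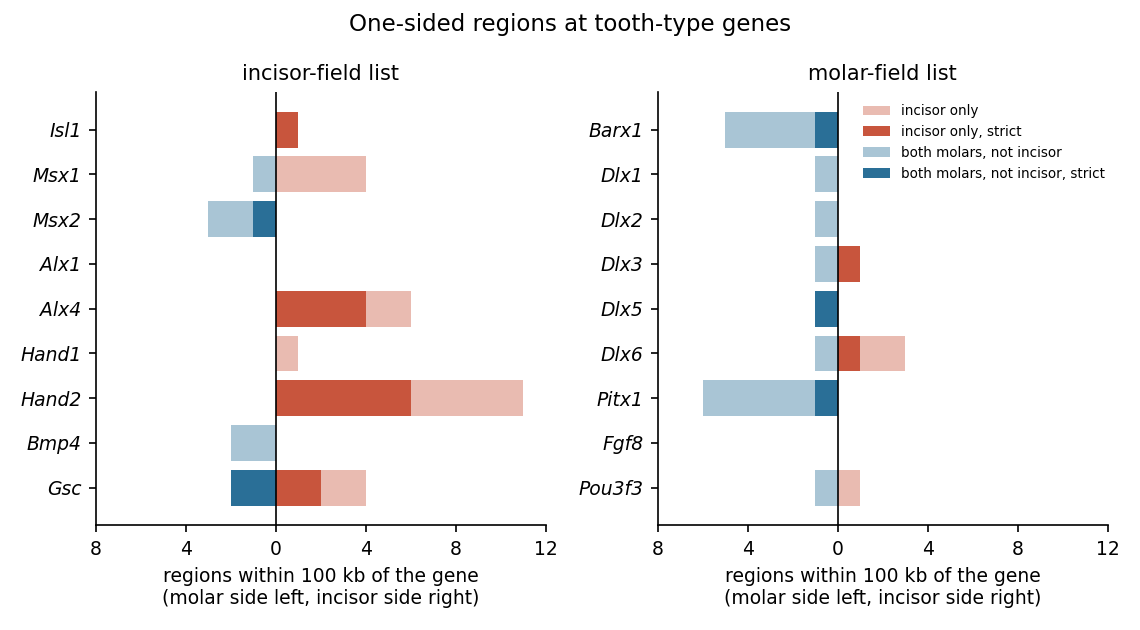
Numbers of one-sided regions within 100 kb of each gene of the incisor-field list (left panel) and the molar-field list (right panel), incisor-only to the right of 0 and molar-only to the left, with strict regions in full colour. Hand2 reaches 11 regions on the incisor side, and Barx1 and Pitx1 reach 5 and 6 on the molar side.

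At genes of the proximal jaw and molar field the lean was to the molars, but it rested on a pair of genes and on list length. Of 22 one-sided regions at the 9 genes, 17 were molar-only, which leaves an incisor-only share of 22.7% (10.1 to 43.4). At equal list length 8 of 15 were molar-only and the share was 46.7% (24.8 to 69.9), near the 54.4% of all genes. The strict set held 3 molar-only and 2 incisor-only regions. Barx1 and Pitx1 together gave 11 of the 17.

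Barx1, a homeobox gene of proximal arch mesenchyme, had 5 molar-only regions and no incisor-only region. Besides the promoter they lay 9.16, 7.08, 2.95 and 28.1 kb from the gene, with signals of 200 to 717 in the lower molar and 409 to 575 in the upper molar. All 5 had a peak in ectoderm replicate 1. The incisor had a single peak at this locus, 32 kb away (435), in a region that all 7 libraries shared. Pitx1, a homeobox gene of the mandibular arch, had 6 molar-only regions and 7 open in all 3 teeth. The strict one (chr13:55863953-55864957), 28.3 kb from the gene, had signals of 1195 and 1355 in the lower and upper molar and 715 in ectoderm replicate 1. Another lay over a Pitx1 end, with 549 and 371, and both ectoderm replicates had a peak there.

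The Dlx genes, homeobox genes that pattern the arches along the jaw, had few one-sided regions. Dlx1, Dlx2 and Dlx5 had 1 molar-only region each and no incisor-only one, Dlx3 had 1 of each, and Dlx6 had 3 incisor-only and 1 molar-only region. Regions open in all 3 teeth numbered 10 at Dlx2, 7 at Dlx3 and 6 at each of Dlx5 and Dlx6. Pou3f3 had 1 region on each side. Fgf8, the early epithelial signal of the proximal jaw, had no one-sided region and 2 shared ones, where the one inside the gene had a signal of 375 in the incisor, 442 in the lower molar and 460 in the upper molar.

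**Figure D3:**
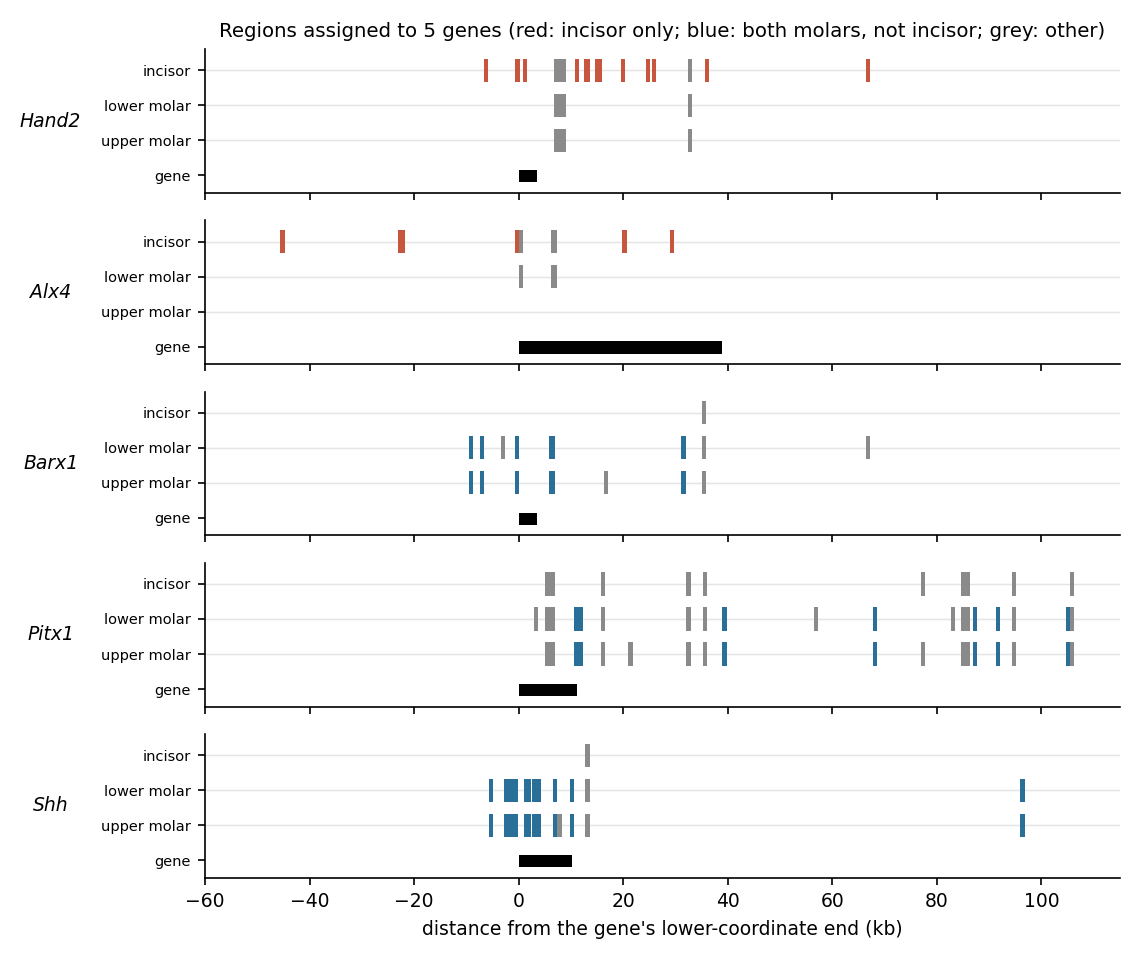
Regions assigned to 5 genes by distance in kb from the gene's lower-coordinate end, 1 line per tooth, red for incisor-only, blue for molar-only and grey for all others, with narrow regions drawn at least 0.8 kb wide. Around Hand2 the incisor has 13 regions and each molar 2, and around Shh the incisor has 1 region and the molars 9 and 10.

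Shh, the hedgehog ligand made by the enamel knot and by incisor epithelium, carried the most molar-only regions of the enamel knot list, 8 against none for the incisor, with 4 strict. All but 1 lay over the gene or within 6 kb of it. The widest (chr5:28454105-28456697, 2593 bp) ended within 1 kb of the gene and had signals of 2262 and 3520 in the lower and upper molar and no peak in any other library. The region over the upper-coordinate end had 758 and 852, and ectoderm had 980.5 and 459 there. A single region, 2.89 kb from the gene, was open in all 3 teeth, with 501 in the incisor and 1561 and 1979 in the molars. Long-range Shh enhancers are known to lie in the interval toward Rnf32, and this interval of 725.6 kb was examined after the values at Shh had been seen. It held 13 molar-only regions, 8 of them strict, no incisor-only region and 11 regions open in all 3 teeth. One of its molar-only regions (chr5:28847166-28848184) was among the first 10 strict molar-only regions by signal in both molars, with 2419 and 2702 in the lower and upper molar.

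Other genes of tooth development were compared through lists. Some genes belong to several lists, so the lists are not separate observations. Over all genes the incisor-only share was 44.9%, with 54.4% at equal list length and 41.0% in the strict set. Of the enamel knot list, 28 of 33 one-sided regions were molar-only, 8 of them at Shh, and the incisor-only share was 15.2% (6.65 to 30.9; 30.8% at equal list length). For genes used in all teeth the counts were 14 incisor-only and 38 molar-only (26.9%, 16.8 to 40.3, and 37.0% at equal length). In the strict set this list and the enamel knot list each had 3 incisor-only and 10 molar-only regions (23.1%, 8.18 to 50.3). That interval included the 41.0% of all genes. Among the genes used in all teeth, Trp63, a master regulator of stratified epithelium, had 12 molar-only regions and none on the incisor side. Lef1, a mediator of Wnt signalling, had 5 and none. Runx2, the bone and odontoblast factor, had 3 incisor-only regions and no molar-only one, as did Pax9, a paired-box factor of dental mesenchyme. Trp63 kept 3 strict molar-only regions, while Lef1, Runx2 and Pax9 had no strict region on either side. At equal length Trp63 had 1 incisor-only and 6 molar-only regions, Lef1 1 and 1, Runx2 2 and 1, and Pax9 1 and 0. The list of incisor stem cell and growth genes did not lean to the incisor. It had 10 incisor-only and 21 molar-only regions (32.3%, 18.6 to 49.9). Its interval included the share of all genes, and at equal length its share was 42.9%. In that list Fgf10, a mesenchymal growth factor that maintains the cervical loop, had 3 incisor-only regions and no molar-only one, while Sox2, a stem cell factor, had 1 molar-only region, Tbx1 1 against 4, and Lgr5, Bmi1 and Gli1 no one-sided region.

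Most one-sided regions at dentin and bone genes were incisor-only. This list had 30 incisor-only and 8 molar-only regions, a share of 78.9% (63.6 to 88.9; 80.6% at equal length). Dspp and Dmp1, which encode dentin matrix proteins, had 3 incisor-only regions each and none on the molar side. A region 0.282 kb from Dspp had an incisor signal of 238 and no peak in any other library. Col1a1, the main collagen chain of dentin and bone, had 5 incisor-only regions, none molar-only and 7 open in all 3 teeth. Enamel genes had 14 and 16, an incisor-only share of 46.7% (30.2 to 63.9), near that of all genes, and members lay on both sides. Inside this list Slc24a4, an ion exchanger of enamel maturation, had 5 incisor-only regions and 1 molar-only, and Mmp20, an enamel protease, had 3 and 0. Wdr72, needed for enamel maturation, had 0 and 5 and Satb1, a chromatin organizer, had 0 and 3, all 3 of these strict. Ambn, an enamel matrix gene, had a gene-end peak in all 3 teeth.

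Among the lists of cell-type markers, those of dentin and bone, epithelium and endothelium had shares whose interval, with all peaks, did not include that of all genes. The intervals treat regions of the same gene as independent, and the lists were chosen with earlier results of these data known. They are thus no test of a lean. General epithelial genes had 4 incisor-only and 20 molar-only regions (16.7%, 6.68 to 35.8; 23.5% at equal length), 4 of the latter at Cdh1, the epithelial cadherin. In the strict set only 2 and 4 remained, 33.3% against 41.0% of all genes, so the epithelial lean there was small and rested on few regions. Endothelial genes had 18 incisor-only and 8 molar-only regions (69.2%, 50.01 to 83.5; 6 and 2 in the strict set), 7 of the former at Erg, an endothelial ETS factor. At equal length the share was 71.4% (45.4 to 88.3), an interval that included the 54.4% of all genes. Pecam1 leaned the other way, with 2 incisor-only and 4 molar-only regions (0 and 2 strict). Sox17 had 0 and 1, and Kdr 2 and 2. The mesenchyme list had 14 on each side (50%, 32.6 to 67.4; 63.6% at equal length), and 1 against 4 in the strict set (20%). Cartilage genes had 5 and 8, blood and immune genes 3 and 4, neural and Schwann genes 3 and 2, muscle genes 4 and 2, and Hox genes, which are silent in the first arch, 1 and 1. Of the marker genes, 9 of 12 epithelial genes had a gene-end peak in the incisor and 11 of 12 in each molar. The same count for endothelial genes was 4 of 8 in the incisor, 5 in the lower and 2 in the upper molar, and for mesenchyme genes 10, 10 and 11 of 14. No Hox gene had one in any tooth. Amelx, Pecam1, Hbb-bs and Sox10, markers of ameloblasts, endothelium, red blood cells and Schwann cells, had none either. Yet Pecam1 had 4 and Sox10 had 2 regions open in all 3 teeth, and other members of their lists had gene-end peaks. Of 7 autosomal neural and Schwann genes, 6 had one in each tooth. Of 13 autosomal enamel genes, 8 had one in the incisor, 10 in the lower and 11 in the upper molar. For blood and immune genes it was 3 of 7 in each tooth. The part of cell makeup in the one-sided regions was not tested.

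**Figure D4:**
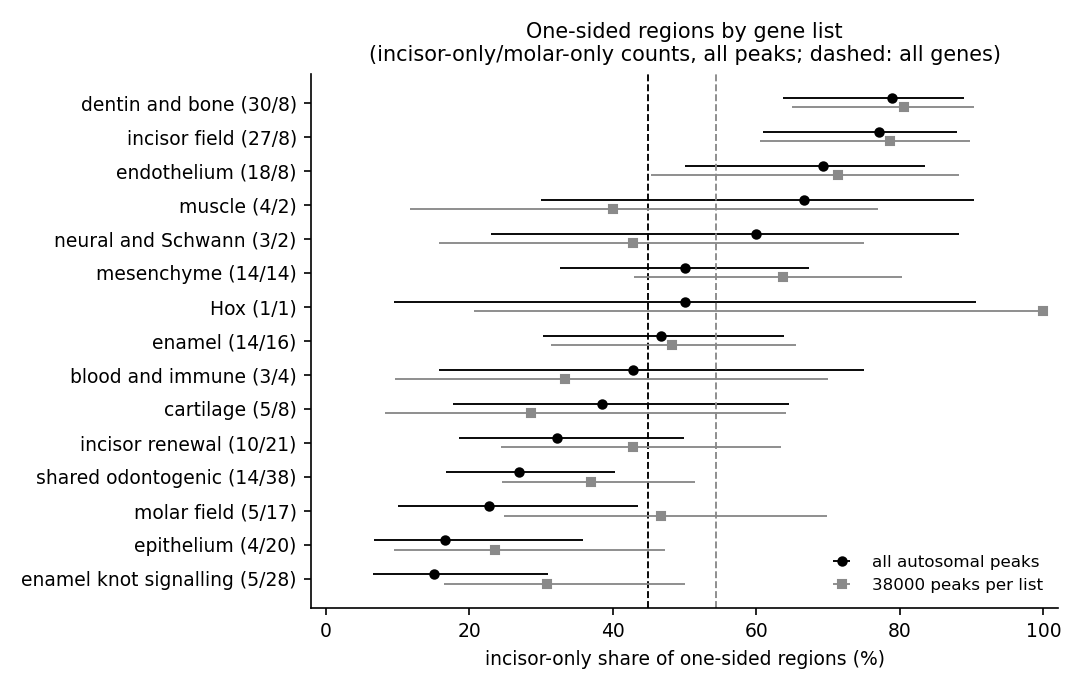
Incisor-only share of one-sided regions (horizontal axis, percent) for 15 gene lists, with Wilson 95% intervals, for all peaks (black) and 38000 peaks per list (grey); dashed lines give all genes, 44.9% and 54.4%. The dentin and bone list (78.9%) and the incisor-field list (77.1%) lie above both lines, and the enamel knot list (15.2%) and the epithelial list (16.7%) lie below both.

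The strongest strict regions were chosen by signal alone from the one-sided regions described above, so the return of Hand2 and Shh among them is no separate evidence. Of the 10 with the highest incisor signal 8 are described here: 1 was at Hand2 and 1 inside Alx1 near its end. The others were nearest to Ino80 (2358), Angpt4, an angiopoietin (2093.5), Gfm2 (1747), Mn1 (1721), Cnih3 (1716) and Ppp1r3c (1696). The Gfm2 region lay inside the gene, and those of Angpt4, Ino80, Ppp1r3c and Cnih3 lay 7.40, 17.25, 41.4 and 47.1 kb outside. The Mn1 region was 187 kb from the gene, beyond the 100 kb used for assignment. All 8 had a peak in Sox2-positive replicate 2, 5 in replicate 1, and 1 in ectoderm. Molar-only regions were ordered by the worse of their ranks by signal in the lower and upper molar. The first by this order was inside Dlc1 (chr8:36704088-36705708), with 2767 and 2780 in the lower and upper molar and no peak in any other library. Others lay inside Agbl1 (2683 and 3047), Cracr2a (2677.5 and 3118), Frem2, an epithelial basement membrane gene (2617.5 and 2715), Insyn1 (2472 and 2656) and Kif5c (2368 and 2278), over an end of Ptpn3 (2533 and 2303), and 123 kb from 4931429L15Rik (2475 and 3157). The places at Shh and toward Rnf32 completed the 10. Sox2-positive replicates had a peak in 6 of the 10 (either replicate) and ectoderm in 3.

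Genes were also ranked by the excess of strict regions on a side. Regions within 100 kb of a gene's nearer end were counted. Of all genes, 1803 had at least 1 strict incisor-only region, 2447 at least 1 strict molar-only region and 492 both, and 9 genes were 4 or more ahead for the incisor and 27 for the molars. Hand2 led the incisor side with 6 to 0. Behind it came Alx4, Cebpb, Col15a1, Dlc1, Gnao1 and Twist2 with 4 to 0, and Gli3 and Ror1 with 5 to 1. Gli3 encodes an effector of hedgehog signalling, Twist2 a bHLH factor of mesenchyme and Ror1 a Wnt receptor. In all, 39 genes were 3 or more ahead; of those tied at 3, Adamts17 is named by alphabetical order alone, and its one-sided regions leaned the other way, 4 incisor-only against 6 molar-only. The count of Dlc1 leaves out the strict molar-only region inside this long gene, which lies 137 kb from its nearer end and so beyond the 100 kb limit. On the molar side Chst11, Cttnbp2, Il20rb, Ktn1, Slco3a1 and Spock1 had 5 to 0, and these were the 6 genes furthest ahead. Of those tied at 4 ahead, the alphabetically first were Acpp, Arl4c and Asap2 with 4 to 0 and Ap3b1 with 5 to 1.

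Peaks at gene ends were taken from the same lists, so the return of genes named above is no separate evidence. Of 20661 autosomal protein-coding genes, 179 had a peak within 1 kb of an end in the incisor and in neither molar (0.866%), and 440 in both molars and not in the incisor (2.13%), while 12234 had one in all 3 teeth. Windows alone gave 201 and 474, and those where a wider peak of the same region reached into the window in some teeth only were left out. The highest incisor signals were at Alx1 with Gm34298 (2131), Angpt4 (1275), Klhl31 (1125), Gm13090 (1023.5), Hand2 (946), Mrgprf (944), Cldn20 (858), Wnt10b (856) and Gm39572 (854). Wnt10b, a Wnt ligand of dental epithelium, was also open there in both ectoderm replicates. On the molar side they were at Ptpn3, Shh, Stra6l (1965 and 2299), Tnk1 (2087 and 1886), Orm1 (1783 and 1832), Rab25, an epithelial GTPase (1665.5 and 1680), Olfr1278, Krt73, a keratin gene (1229 and 1424), Barx1 and Drc1.

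One-sided regions were narrow and lay away from gene ends. Their median width was 386 bp (incisor-only) and 418 bp (molar-only), against 771 bp for regions open in all 3 teeth. The centre lay within 1 kb of a gene end in 4.03% of incisor-only regions (3.69 to 4.40) and in 5.22% of molar-only regions (4.88 to 5.58), against 26.1% of shared regions. The difference of −1.19 percentage points between the one-sided classes (Newcombe 95% interval −1.68 to −0.693) was −1.04 at equal list length and −0.0531 with windows around the summits in place of peaks. Many one-sided regions bordered open chromatin of the other tooth type: 15.4% of incisor-only and 11.6% of molar-only regions had a region with a peak of the other side within 1 kb. They also came in runs. Where the next one-sided region lay within 50 kb, it was incisor-only in 55.6% of cases after an incisor-only region and in 36.7% after a molar-only region, against 43.6% of all one-sided regions.

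Molar-only regions were open in embryonic ectoderm more often than incisor-only regions. In ectoderm replicate 1 a peak lay in 40.1% of molar-only (39.4 to 40.9) and 12.2% of incisor-only regions (11.6 to 12.8), a difference of −27.9 points for incisor-only minus molar-only (−28.9 to −26.9). In replicate 2 the shares were 30.4% and 5.88%, and the difference −24.6 points (−25.4 to −23.7). Both replicates gave the same direction, which held at equal list length (−22.9 and −23.6 points) and in the strict set. A peak in both ectoderm replicates was found in 30.0% of molar-only and 5.55% of incisor-only regions. One-sided regions at epithelial genes, as given above, were mostly molar-only as well, and their part in this difference was not tested.

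The Sox2-positive libraries disagreed with each other. In replicate 1 the share was lower in incisor-only than in molar-only regions, 12.4% against 18.01% (difference −5.64 points, −6.48 to −4.79). In replicate 2 it was higher, 23.4% against 5.995% (17.4 points, 16.5 to 18.2). The same opposition held at equal list length, −8.67 against 31.9 points. Requiring a peak in both replicates left a difference of 1.41 points (0.890 to 1.95), with 5.83% and 4.42%. No direction for sorted incisor epithelium can be taken from these values. Most regions open in all 3 teeth had a peak in each of these libraries, from 56.4% in ectoderm replicate 2 to 72.8% in Sox2-positive replicate 1.

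**Figure D5:**
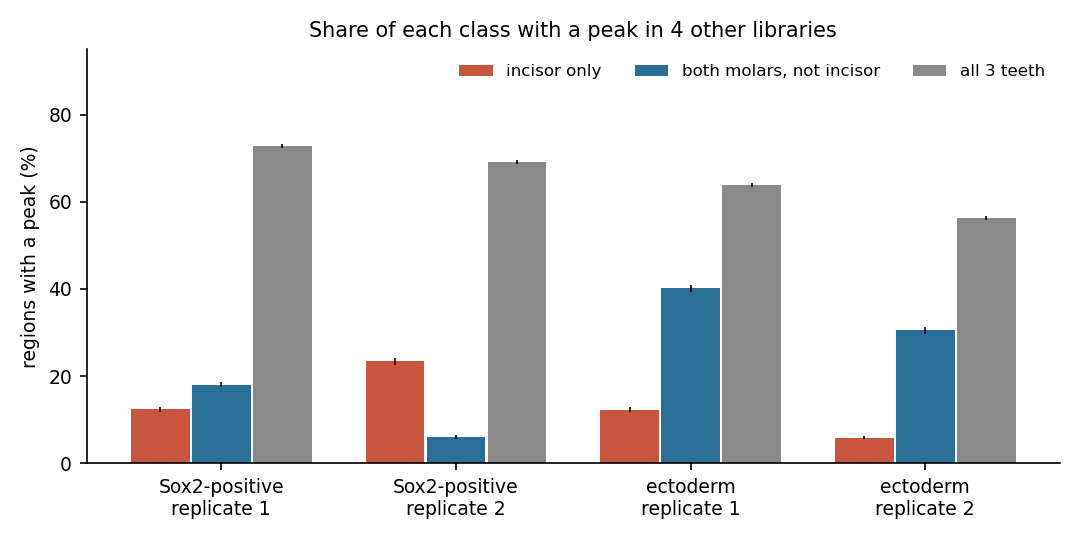
Share of regions with a peak (vertical axis, percent, with Wilson 95% intervals) in each of 4 libraries that were not used to choose the regions, for incisor-only, molar-only and shared regions. Both ectoderm replicates have more peaks in molar-only regions (40.1% and 30.4%) than in incisor-only regions (12.2% and 5.88%), and the Sox2-positive replicates point in opposite directions.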

How the data were processed

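The authors deposited 1 narrowPeak list per library. Peaks were called with Genrich on mm10, per the submitters' processing notes, which also name FastQC, Trimmomatic, Bowtie2 and deepTools; options and read filters are not given in the sources used here. The deposited signal is the area under the caller's significance curve, and the deposited −log10 p ranked the peaks; the deposited score was not used. Lists hold no read counts, so depth is unknown. Groups follow the sample titles. Peaks were merged with Python 3.11.15, pandas 2.3.3 and numpy 2.4.6, after checks on simulated lists. Genes and promoters are RefSeq GRCm38.p6; the gene table has no strand, so both gene ends were used. Some items are not reported here and were left out of the lists. Named were all genes of both field lists, members of other lists with a one-sided region, and up to 10 per side of the strongest strict regions, of genes by excess of strict regions, and of one-sided gene ends by signal. The rules for gene ends and promoters were narrowed to whole regions after values were seen. Members and lists were chosen with earlier results of these data known. Alternatives changed list length, threshold, overlap, peak extent, chromosomes, molars, window and distance. Replicates of the ectoderm and Sox2-positive groups may be technical, as their animals are not stated.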

Additional observations from a re-analysis of the deposited data

Results flagged for a closer look

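Peaks on the X and Y chromosomes and on unplaced contigs entered no region class of the main setting. Their counts were above the 3 that a count of 0 allows, apart from the upper molar on Y, which equalled it. An alternative setting that included X and Y gave 12231 incisor-only and 15868 molar-only regions. Gene-end peaks of X-linked list genes such as Amelx were also looked up on X. Chromosome X had 924 peaks in the incisor, 1079 in the lower molar and 1070 in the upper molar, which gave 148 incisor-only, 238 molar-only and 702 shared regions. Chromosome Y had 5, 4 and 3 peaks, and no one-sided region. Unplaced contigs had 37, 40 and 41 peaks. These values are given without a test.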

How the results depend on the processing

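Each tooth has 1 library, and peak lists carry neither depth nor counts, so list length could not be corrected for depth. No paired analysis was possible because no test was run and each tooth has 1 library. The incisor-only count was 6854 with the 50% of each list of smallest p-value and 2696 in the strict set, which was added after seeing the data. The molar-only count was 8413 at equal length by p-value, 7955 at equal length by signal, 8478 with the 50% threshold and 4212 in the strict set. The difference in the share near gene ends was −1.71 points with the 50% threshold, −0.0531 with summit windows and −0.625 in the strict set. For a peak in both Sox2-positive replicates the difference was 3.10 points at equal length by p-value, 0.306 by signal, 0.840 with the 50% threshold, 2.94 and 3.65 with the lower or upper molar alone and 3.07 in the strict set. Leaving out one replicate gave −5.64 points without replicate 2 and 17.4 without replicate 1, so its sign rests on the replicate. For ectoderm the difference was −22.4 points at equal length by p-value, −21.7 by signal, −21.4 with the 50% threshold, −22.0 with summit windows, −21.4 and −21.1 with the lower or upper molar alone, and −27.9 to −24.6 when one replicate was left out. Of 145 alternative values for the gene lists' shares relative to all genes, 136 stayed within the list's Wilson interval and 9 lay outside it. No list whose interval excluded the share of all genes changed side under these alternatives, but some came close to that share. In the strict set the molar-field list differed from all genes by −0.988 points, against −22.1 in the main setting. The epithelial list differed by −7.655 points there, against −28.2. The causes were not tested.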
